A study of Mus musculus with 24 samples.

Results

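The 12859 regions described here were H3K27ac peaks of mouse liver that lay inside introns, away from transcript starts, and were called in both sexes of both strains. Peaks of the 4 deposited lists that overlapped by 1 bp or more were merged on the autosomes into 117616 union regions. Members had a peak in all 4 lists, a width under 5000 bp and a distance of more than 2500 bp from every annotated transcript start, and lay wholly inside a protein-coding gene body without touching an exon. Of 47477 regions with a peak in all 4 lists, 47472 were under the width limit, 29830 of these were beyond the start distance, 15744 of those were wholly inside a protein-coding gene and 12859 touched no exon. The members were thus chosen by measured values, the peak calls of all 4 lists, and their levels are given as a description of regions selected on being called.

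The lists came from livers of untreated mice of both sexes, aged 8 weeks and bought from a vendor, of the inbred strains C57BL/6J, called B6, and CAST/EiJ, called CAST. The series has 24 samples, namely 20 H3K27ac libraries and 4 input libraries, with 5 livers and 1 input for each of male B6, female B6, male CAST and female CAST. Each list was called by the authors on the pooled reads of the 5 livers of a group, so every value has 1 pooled list behind it, no replicate error exists, and no test between groups was made. Intervals on shares are 95% Wilson intervals and, like those on densities, cover counting error only. The titles and the list names gave the groups, because a strain field of the labels calls all males B6 and all females CAST and so contradicts the titles of 2 of the 4 groups. Across members, fold enrichment was closest between lists that share a strain by title (Spearman 0.824 for male and female B6, 0.827 for male and female CAST), against 0.715 to 0.793 for the other 4 pairs of lists. Whole liver is mostly hepatocytes by mass, and fewer cells of a type cannot be told apart from less acetylation per cell. Of 10 hepatocyte marker genes, 9 had a region in all lists within 2500 bp of a start, against 2 of 6 for Kupffer cells and macrophages, 6 of 7 for sinusoidal endothelium, 1 of 7 for stellate cells, 3 of 5 for cholangiocytes and 1 of 7 for T and B cells. Only 1 of 8 hepatocyte marker genes with intron far enough from a start hosted a member.

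CBP and p300 place H3K27ac, an acetyl group on a lysine of the histone H3 tail, at active promoters and enhancers, and histone deacetylases remove it. Enhancers are DNA elements that bind transcription factors and act on promoters at a distance, and many lie inside introns, of the gene they act on or of a neighbour. In hepatocytes such elements commonly bind FOXA, HNF4A, C/EBP and HNF1 factors, while the growth hormone signal, which runs through STAT5 and differs in its rhythm between males and females, is a main source of sex differences in liver chromatin.

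Central windows of 300 bases are shown for 12 members, from the plus strand of the reference genome (NCBIM37, the assembly also named mm9), which is B6 sequence. The first 3 are the top members by lowest score percentile over the lists, shown with each CG pair in capitals because they differ in these. They lie in intron 1 of 0610040J01Rik, window chr5:64238214-64238513, in intron 1 of Nenf, window chr1:193136594-193136893, and in intron 1 of Epo, window chr5:137951720-137952019.
0610040J01Rik: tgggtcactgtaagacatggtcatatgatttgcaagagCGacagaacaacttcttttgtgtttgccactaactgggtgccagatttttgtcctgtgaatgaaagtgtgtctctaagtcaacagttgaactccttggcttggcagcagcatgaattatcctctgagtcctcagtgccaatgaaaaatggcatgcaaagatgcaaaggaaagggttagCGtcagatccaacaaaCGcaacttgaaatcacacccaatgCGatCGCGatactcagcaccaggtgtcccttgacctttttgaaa
Nenf: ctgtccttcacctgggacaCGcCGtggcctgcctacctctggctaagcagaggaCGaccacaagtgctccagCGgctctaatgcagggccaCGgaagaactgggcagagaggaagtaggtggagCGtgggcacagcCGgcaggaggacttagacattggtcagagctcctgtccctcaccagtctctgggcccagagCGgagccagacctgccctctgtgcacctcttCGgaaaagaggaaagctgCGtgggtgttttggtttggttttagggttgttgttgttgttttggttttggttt
Epo: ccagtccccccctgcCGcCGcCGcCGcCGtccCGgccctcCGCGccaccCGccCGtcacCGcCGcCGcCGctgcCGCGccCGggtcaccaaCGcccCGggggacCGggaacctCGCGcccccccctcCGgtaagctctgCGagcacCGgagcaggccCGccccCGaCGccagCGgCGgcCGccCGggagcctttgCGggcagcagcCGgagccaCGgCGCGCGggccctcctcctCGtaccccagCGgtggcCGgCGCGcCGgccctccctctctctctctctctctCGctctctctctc

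The next 4 windows show members with some of the most uneven sex ratios in both strains. Odz2 (intron 4, chr11:36445962-36446261) and Myo18b (intron 12, chr5:113277763-113278062) were higher in males, and Mkl2 (intron 2, chr16:13313849-13314148) and Myh14 (intron 10, chr7:51900270-51900569) in females. Capitals would mark matches to the motifs given with the sequence results, and none of these 4 windows held one. Of the other members named as higher in the same sex in both strains, the windows of Atrnl1 (C/EBP, ONECUT and E-box) and Greb1l (E-box) held matches.
Odz2: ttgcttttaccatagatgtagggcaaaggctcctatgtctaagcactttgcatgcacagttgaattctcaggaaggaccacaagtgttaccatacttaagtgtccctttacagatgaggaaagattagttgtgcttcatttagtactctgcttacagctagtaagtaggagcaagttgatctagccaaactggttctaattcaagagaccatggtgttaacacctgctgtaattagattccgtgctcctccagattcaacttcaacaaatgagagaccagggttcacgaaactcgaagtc
Myo18b: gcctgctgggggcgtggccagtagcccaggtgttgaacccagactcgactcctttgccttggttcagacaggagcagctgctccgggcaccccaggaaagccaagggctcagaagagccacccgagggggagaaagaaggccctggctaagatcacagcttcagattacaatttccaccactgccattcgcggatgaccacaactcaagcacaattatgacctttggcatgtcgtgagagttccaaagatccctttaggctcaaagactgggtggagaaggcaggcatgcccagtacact
Mkl2: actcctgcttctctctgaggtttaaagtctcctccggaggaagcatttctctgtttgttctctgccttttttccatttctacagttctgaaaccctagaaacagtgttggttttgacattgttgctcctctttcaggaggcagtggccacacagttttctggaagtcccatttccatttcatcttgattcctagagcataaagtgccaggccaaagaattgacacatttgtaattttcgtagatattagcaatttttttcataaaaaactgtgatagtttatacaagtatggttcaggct
Myh14: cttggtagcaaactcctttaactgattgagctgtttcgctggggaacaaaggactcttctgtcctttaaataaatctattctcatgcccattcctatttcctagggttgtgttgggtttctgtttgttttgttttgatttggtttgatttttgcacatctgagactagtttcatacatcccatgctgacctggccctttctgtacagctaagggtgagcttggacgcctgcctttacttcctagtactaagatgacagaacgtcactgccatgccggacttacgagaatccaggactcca

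The following 3 show members with some of the most uneven strain ratios in both sexes. Ap3b1 (intron 1, chr13:95152163-95152462) was higher in B6, and Slc45a2 (intron 2, chr15:10940820-10941119) and Ttc7b (intron 17, chr12:101579982-101580281) in CAST. The capitals mark a C/EBP match in Ttc7b, and the windows of Ap3b1 and Slc45a2 held no match.
Ap3b1: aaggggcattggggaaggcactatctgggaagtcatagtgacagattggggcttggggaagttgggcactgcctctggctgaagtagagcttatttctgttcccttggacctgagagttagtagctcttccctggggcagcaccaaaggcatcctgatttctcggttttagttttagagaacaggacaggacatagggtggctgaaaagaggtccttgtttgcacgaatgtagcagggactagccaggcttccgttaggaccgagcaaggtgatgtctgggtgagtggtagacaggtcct
Slc45a2: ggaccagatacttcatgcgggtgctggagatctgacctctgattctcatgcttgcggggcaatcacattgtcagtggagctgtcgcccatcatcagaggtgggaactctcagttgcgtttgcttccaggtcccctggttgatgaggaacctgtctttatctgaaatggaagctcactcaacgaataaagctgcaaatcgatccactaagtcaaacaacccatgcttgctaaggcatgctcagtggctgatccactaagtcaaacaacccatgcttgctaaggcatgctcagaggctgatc
Ttc7b: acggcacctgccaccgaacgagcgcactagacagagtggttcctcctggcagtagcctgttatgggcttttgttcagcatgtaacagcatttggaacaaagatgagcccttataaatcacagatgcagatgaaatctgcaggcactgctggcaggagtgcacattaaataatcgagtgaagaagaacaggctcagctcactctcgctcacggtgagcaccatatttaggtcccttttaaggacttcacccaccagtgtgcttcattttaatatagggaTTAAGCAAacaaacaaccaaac

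The last 2 windows were picked after their matches were seen, to show liver motifs side by side. In Ghr (intron 1, chr15:3414455-3414754) the first run of capitals joins a D-box and a FOXA match that share bases, and the other joins a STAT5 and an ETS match. The Trpm1 member (intron 1, chr7:71337384-71337683) was the highest one whose window held the HNF4A motif. Its capitals mark an E-box, the HNF4A match and, at the end, a C/EBP match that shares bases with a FOXA match.
Ghr: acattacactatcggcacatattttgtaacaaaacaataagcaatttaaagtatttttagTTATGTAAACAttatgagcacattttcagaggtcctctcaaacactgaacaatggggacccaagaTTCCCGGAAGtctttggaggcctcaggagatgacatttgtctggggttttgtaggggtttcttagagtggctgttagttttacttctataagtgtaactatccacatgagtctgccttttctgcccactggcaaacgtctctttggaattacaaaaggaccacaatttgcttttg
Trpm1: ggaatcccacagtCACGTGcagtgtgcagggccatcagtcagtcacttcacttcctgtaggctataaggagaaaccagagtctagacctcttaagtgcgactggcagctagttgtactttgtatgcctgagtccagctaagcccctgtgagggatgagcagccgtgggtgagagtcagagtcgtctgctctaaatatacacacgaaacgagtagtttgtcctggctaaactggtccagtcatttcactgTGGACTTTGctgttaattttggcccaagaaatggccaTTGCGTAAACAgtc

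The members' level was lower than that of other shared regions. Fold enrichment, the coverage at a peak's summit over its local input background, had a median of 2.58 in male B6, 2.58 in female B6, 2.76 in male CAST and 2.64 in female CAST. Intergenic distal regions in all lists (n = 13038) had medians of 2.96, 2.95, 3.17 and 2.98 in the same order, and regions within 2500 bp of a start (n = 17645) had 4.0, 4.05, 4.3 and 3.99. The order of these classes was the same in every list. Members ran from 1.34 to 9.92 in male B6, from 1.32 to 8.73 in female B6, from 1.37 to 13.6 in male CAST and from 1.38 to 12.9 in female CAST. The summit coverage worked out from fold enrichment and p had medians of 97, 95, 101 and 87 over the lists, against 224, 218, 239 and 188 near starts, so a single ratio between lists rests on far fewer fragments at members than near starts.

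**Figure D1:**
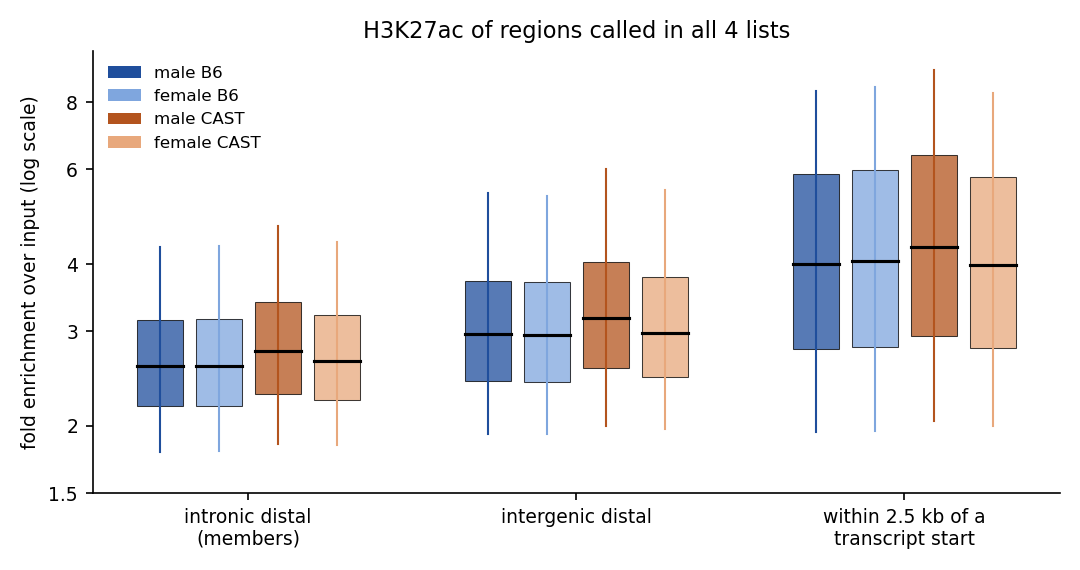
Fold enrichment over input (log axis) of regions with a peak in all 4 lists, by class and list; boxes span the quartiles, the black line is the median and the thin line runs from the 5th to the 95th percentile of regions. In each list the members have the lowest median (2.58 to 2.76) and regions near a transcript start the highest (3.99 to 4.3).

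Members were 260 to 4840 bp wide, with a median of 1204 bp and quartiles of 819 and 1681 bp, and covered 16.8 Mb in total. Their edge lay at a median of 15540 bp from the nearest transcript start, with quartiles of 7778 and 33540 bp. In 432 members no single base was covered in all 4 lists, as their peaks only chained. More than 1 peak of a list fell in 9.73% of members in male B6, 13.6% in female B6, 13.5% in male CAST and 16.2% in female CAST.

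All intronic distal union regions numbered 43477, and those in all 4 lists were 29.6% of them. Those in 1 list made up 40.7% (17711 regions, median width 292 bp), those in 2 lists 18.2% (7899, 514 bp) and those in 3 lists 11.5% (5008, 700 bp). Width and number of lists thus rose together, which the merging rule itself favours. Of the regions in 3 lists, the missing list was female B6 for 34.3% (95% interval 33.0 to 35.7), female CAST for 33.8% (32.5 to 35.1), male B6 for 20.5% (19.4 to 21.6) and male CAST for 11.3% (10.5 to 12.2). The lists held 79862 peaks in male B6, 82181 in female B6, 90228 in male CAST and 84645 in female CAST, so the list with the fewest peaks was not the one most often missing.

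The strongest members, by their lowest score percentile over the lists, lay in 0610040J01Rik, Nenf, Epo, Gm20388, Arid1b and Creb3l1. The 0610040J01Rik member (chr5:64237107-64239501) had fold enrichments of 8.35 in male B6, 8.73 in female B6, 10.1 in male CAST and 9.11 in female CAST. In Nenf, which encodes the secreted factor neudesin, the member (chr1:193136117-193137366) had 8.66, 8.21, 10.5 and 8.89 in that order. In Epo, the gene of the hormone erythropoietin, the member lay 22.6 kb from the annotated gene start, in an annotated intron of 47.3 kb. This member (chr5:137950864-137952727) had 6.38, 6.00, 7.91 and 6.71. All of these were highest in male CAST.

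Gm20388 is a predicted gene model of 4435 kb that overlaps many shorter genes, and its member (chr8:122713300-122716229) had fold enrichments of 7.48, 7.70, 6.94 and 6.73. The member in Arid1b, which encodes a subunit of the BAF chromatin remodeller (chr17:5189129-5190957), had 6.10, 7.04, 8.06 and 6.84. In Creb3l1, the gene of a transcription factor anchored in the endoplasmic reticulum, the member (chr2:91847753-91849876) had 6.91, 6.93, 7.16 and 6.96. The nearest transcript start belonged to a gene other than the host for Epo, Gm20388 and Arid1b.

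Windows of the highest members resembled CpG-rich promoters more often than those of other members. The 300-base window of Epo held 45 CG pairs, Arid1b 18, Creb3l1 16, Gm20388 13, Nenf 10 and 0610040J01Rik 6. Over all members the mean was 3.56 pairs. At least 15 pairs were found in 92 members, 0.715% (0.584 to 0.877), in 10.9% (6.58 to 17.4) of the 129 members in the top 1% by lowest percentile and in 34.6% of RefSeq promoters. With members split by level into 4 groups of equal size, the shares were 0.311%, 0.280%, 0.529% and 1.74% from lowest to highest. A start in a later RefSeq annotation, found by matching 40 bases at the start, lay within 2500 bp of 570 members (4.43%) and inside 130. These members are distal only by the annotation of the mm9 build. Among members named here they include those of Rad51l1, Nfia and Galntl6, with the start inside, and Arntl at 8 bp, Cry1 at 2040 bp and Ppargc1a at 2302 bp.

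First introns held more members than their share of the intron bases. Introns were numbered in 1 representative transcript per gene, which placed 12615 members and left 244 outside. First introns held 4793 of them, 38.0% (37.2 to 38.8), with 25.0% of the intron bases far enough from starts and exons, and second introns 2523 with 15.8% of the bases. Per Mb of eligible intron there were 25.4 ± 0.72 members in first and 13.8 ± 0.31 in later introns (95% half-widths), a ratio of 1.84 (1.78 to 1.91). The order was the same at each intron length, with 17.9 against 10.6 per Mb in introns under 10 kb, 37.3 against 18.8 from 10 to 50 kb, and 19.1 against 12.6 at 50 kb or more. Among introns under 10 kb, the second (17.7 ± 1.83) differed from the first (17.9 ± 2.36) by less than the counting error.

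**Figure D2:**
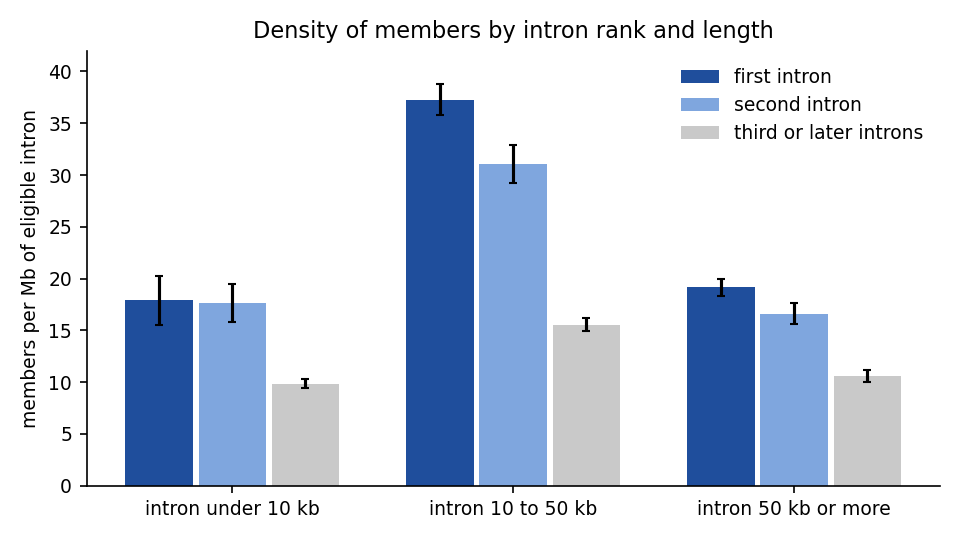
Members per Mb of eligible intron (more than 2500 bp from a start and outside exons) for first, second and later introns, by intron length; bars start at 0 and whiskers are 95% Poisson half-widths. The first introns of 10 to 50 kb hold 37.3 members per Mb, the highest of the 9 bars.

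Level went the other way from number. The median fold enrichment in male B6 was 2.48 in first, 2.56 in second and 2.68 in later introns, and the other lists had the same order. With distance from the nearest start it went from 2.44 at 2.5 to 5 kb to 2.72 at 50 kb or more in male B6, from 2.42 to 2.73 in female B6, from 2.56 to 2.90 in male CAST and from 2.48 to 2.74 in female CAST. These steps are small beside the quartiles of all members in male B6, 2.18 and 3.15.

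The members had 4126 host genes, of which 1813 had 1 member, 1532 had 2 to 4, 550 had 5 to 9 and 231 had 10 or more. The 231 genes with 10 or more held 3465 members, 26.9% of the total. Hosts made up 4120 of the 15822 protein-coding genes with eligible intron, and the density over all eligible intron was 16.7 members per Mb. Neighbouring members of a host were a median of 7.87 kb apart, and 36.8% of 8733 neighbouring pairs were under 5 kb apart. A total of 212 members lay inside more than 1 protein-coding gene.

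Hosts had acetylated starts more often than other genes. A region in all lists lay within 2500 bp of a start of 87.3% (86.3 to 88.3) of 4120 hosts with eligible intron and of 59.3% (58.4 to 60.1) of 11702 genes with no member. Among genes with under 10 kb of eligible intron the shares were 82.2% and 60.2%, from 10 to 50 kb 89.1% and 62.9%, and at 50 kb or more 86.5% and 44.5%. For the 92.6% of members with such a region at the host start, the start was higher in 92.7% of cases, by a median of 1.78-fold. The Spearman correlation between the levels of a member and its host's start was only 0.16 across members, which are not independent as many share a host. The nearest transcript start was that of another gene for 29.2% of members.

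Long genes led the list of hosts. Gm20388 held 95 members, Arhgap26 40, Rora 39, Prkce 36, Zbtb20 35, Lpp 33, and Sox5 and Rad51l1 31 each. Rora, the gene of an orphan nuclear receptor of the clock and of lipid metabolism, had 25 of its 39 in intron 1, with fold enrichments from 1.54 to 5.05. In Zbtb20, whose product is a zinc finger repressor expressed in hepatocytes, the 35 members ran from 1.77 to 6.54, and its highest one (chr16:43045699-43047472) had 5.62 in male B6, 5.14 in female B6, 6.54 in male CAST and 6.53 in female CAST. Prkce encodes a protein kinase C, Lpp a focal adhesion protein, Sox5 a transcription factor and Rad51l1 a recombination factor. Per Mb of eligible intron the densities of these 8 hosts ran from 27.3 for Gm20388 to 107.4 for Arhgap26.

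Among the gene lists used, growth hormone and insulin signalling had the densest members. Of its 25 genes with eligible intron 18 were hosts, with 124 members and 91.7 per Mb, against 4120 of 15822 genes and 16.7 per Mb overall. Lipid metabolism had 31 hosts of 52 (68.8 members per Mb), liver transcription factors 34 of 45 (65.1), glucose metabolism 12 of 29 (57.0), the circadian clock 10 of 16 (53.0) and nuclear receptors 18 of 33 (45.4). Drug and bile acid metabolism had 26 of 64 (34.6 per Mb), plasma proteins 17 of 60 (31.9) and nitrogen metabolism 18 of 38 (25.2). The genes of each list are expressed in liver to a large extent and were not compared with other expressed genes. The median fold enrichment of their members in male B6 ran from 1.93 for plasma proteins to 2.56 for the clock, against 2.58 over all members, and in female B6 glucose metabolism was above all members, at 2.69 against 2.58.

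Ghr, the gene of the growth hormone receptor, hosted 23 members, 12 of them in intron 1, from 24.6 to 261 kb into a gene on chromosome 15 whose start is at 3533492. Their fold enrichments ran from 1.61 to 3.01 in male B6, from 1.66 to 4.43 in female B6, from 1.61 to 3.2 in male CAST and from 1.83 to 3.21 in female CAST. The member nearest the 3′ end of the gene had 3.01 in male B6, 4.43 in female B6, 3.10 in male CAST and 3.21 in female CAST. Only female B6 stood apart there. The member in intron 6 had 2.2, 3.31, 2.53 and 2.13 in the same order and was the only Ghr member past 1.5-fold between the sexes of B6, with no such difference in CAST. It was barely past, at a log2 male over female ratio of -0.589. The Ghr member at 62.3 kb fell just short in CAST, at 0.584.

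**Figure D3:**
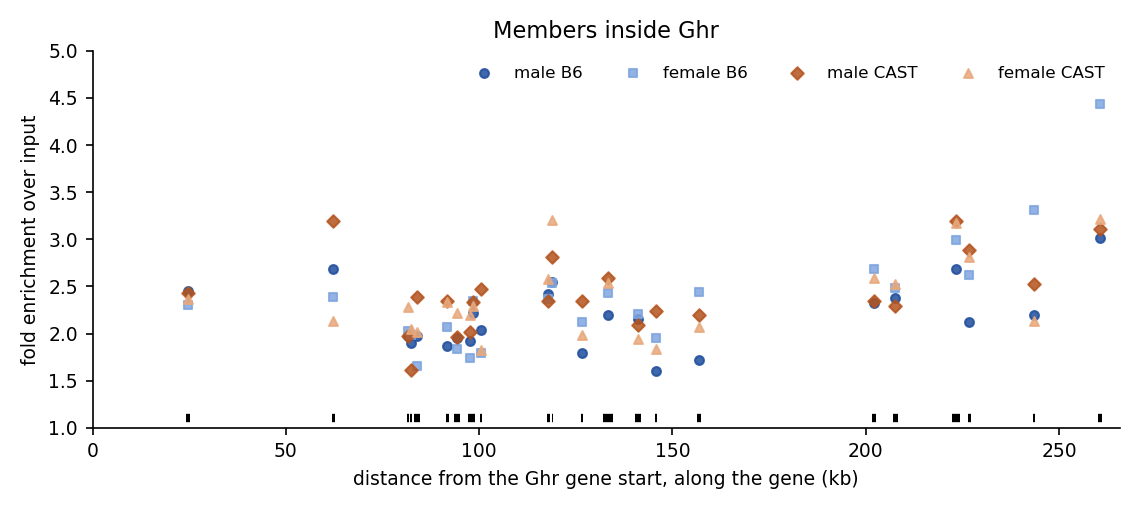
Fold enrichment over input of the 23 members inside Ghr against their distance from the gene start, with 1 symbol per list and black bars for the members' extent. Most values lie between 1.6 and 3.2 in every list, and the highest is the female B6 value of 4.43 near the 3′ end.

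Of the same list, Jak2, the kinase of the growth hormone receptor, held 1 member and Irs2 and Akt2 held none. Prlr, the prolactin receptor, held 14 members with fold enrichments from 1.76 to 6.67, of which none differed by 1.5-fold between the sexes. Its highest by percentile (chr15:10191711-10193302, intron 1) had 3.6 in male B6, 3.08 in female B6, 3.91 in male CAST and 3.37 in female CAST. Igf1, the growth factor that liver secretes under growth hormone, held 11 members from 1.52 to 3.02, and its highest (chr10:87378833-87379161, intron 4) had 2.77, 2.86, 2.69 and 2.89. Those values lay within 1.08-fold of each other between the sexes.

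Among nuclear receptors, Thrb, the thyroid hormone receptor beta, held 28 members and Nr3c2, the mineralocorticoid receptor, 16. The highest in Thrb (chr14:18616666-18619003, intron 1) had 3.95 in male B6, 3.37 in female B6, 4.12 in male CAST and 3.94 in female CAST. The highest in Nr3c2 (chr8:79656227-79658402, intron 3) had 4.13, 5.21, 4.61 and 4.59, and in Rora (chr9:68957051-68959571, intron 1) 3.86, 3.63, 3.92 and 4.34. Of the liver transcription factors, Nfib held 29 and Nfia 27, both genes of the nuclear factor I family. Their highest members had 2.42, 2.73, 2.77 and 2.45 in Nfib (chr4:82037610-82038922) and 3.62, 3.33, 3.79 and 3.01 in Nfia (chr4:97534501-97537179). All of these were under 1.5-fold apart in each comparison.

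In lipid metabolism, Lipc, the gene of hepatic lipase, held 16 members, all in intron 1, Osbpl1a, which encodes a sterol-binding protein, 14, and Elovl6, a fatty acid elongase, 11. The highest in Lipc (chr9:70681702-70683826) had 2.88 in male B6, 3.03 in female B6, 2.94 in male CAST and 3.19 in female CAST. In glucose metabolism, Pcx, the gene of pyruvate carboxylase, held 13 members, and the coactivators Ppargc1b and Ppargc1a held 9 and 7. The highest in Ppargc1a (chr5:51918066-51920409, intron 2) had 4.47, 3.87, 4.82 and 3.88, higher in males of both strains by 1.16 and 1.24-fold.

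In the clock list, Hlf, a PAR bZIP factor, held 9, Arntl, the gene of BMAL1, 6, and the repressor Cry1 3. The highest in Arntl (chr7:120403450-120405240, intron 2) had 3.47 in male B6, 3.02 in female B6, 4.02 in male CAST and 3.73 in female CAST. Among plasma proteins, the complement genes Masp1 and C8a held 8 and 5 members and Gc, the vitamin D binding protein, 4. The highest in Gc (chr5:89876065-89877070, intron 1) had 1.90, 2.14, 2.5 and 2.49, higher in CAST in both sexes by 1.32 and 1.16-fold.

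Cyp7b1, an oxysterol hydroxylase of bile acid synthesis, held 10 members, all in intron 1, Por, the electron donor of the cytochromes P450, 5, and the epoxide hydrolase gene Ephx1 4. The highest in Cyp7b1 (chr3:18091740-18093239) had 3.56 in male B6, 3.63 in female B6, 4.07 in male CAST and 4.67 in female CAST. The region at the Cyp7b1 start had a log2 male over female ratio of -0.94 in B6 and -0.18 in CAST, against -0.03 and -0.20 at this member. The start ratios are of fold enrichment, and the background and summit coverage at that start are not given here. In nitrogen metabolism, Dpyd, which starts pyrimidine breakdown, held 10 members, Gldc, of the glycine cleavage system, 6, and Acmsd, of tryptophan breakdown, 4. The highest in Dpyd (chr3:118281235-118283320, intron 1) had 4.33, 4.16, 5.19 and 5.06.

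HNF4A, FOXA and HNF1 motifs were more frequent in members than in intron sequence nearby. The motifs were searched on both strands in the central 300 bases, as FOXA (TGTTTAC), HNF4A (CAAAGTCCA), C/EBP (TTGCNNAA), STAT5 (TTCNNNGAA), ONECUT (ATTGATT), AP-1 (TGANTCA), ROR (TAGGTCA), E-box (CACGTG), D-box (TTATGTAA), ETS (CCGGAAG) and CRE (TGACGTCA), and for HNF1, the direct repeat DR1, NFI, CTCF and NRF1 by longer consensus letters. Some overlap, since a STAT5 match can hold an ETS match and C/EBP or D-box matches can run into FOXA. The comparison windows were 20592 windows in introns 3000 bp from a member and outside every peak.

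HNF4A matched in 1.25% (1.07 to 1.46) of members and 0.325% (0.256 to 0.413) of nearby introns, a ratio of 3.85, with 1.27% in intergenic distal regions and 0.475% in RefSeq promoters. FOXA matched in 6.44% (6.03 to 6.88) and 3.98% (3.72 to 4.25), a ratio of 1.62. DR1, a site of PPARA with RXR, matched in 1.14% and 0.558%, and HNF1 in 15 members and 2 nearby windows. C/EBP was in 13.8% and 11.7%, ONECUT in 3.77% and 4.13% and CTCF in 2.1% and 2.2%. In all, 14 of 16 motifs had a higher share in members, ONECUT and CTCF being the exceptions. Both exceptions turned in 500-base windows (6.78% against 6.64% for ONECUT, 3.90% against 3.89% for CTCF) and about union midpoints (4.48% against 4.13%, 2.26% against 2.2%). Members also had more G and C, a median of 46.7% against 44.0%, and motif letters in reverse order gave ratios of 1.1 for HNF4A, 0.92 for FOXA and 1.16 for C/EBP, close to the C/EBP ratio of 1.18 as listed. The reversed ratio was over 1 for 9 of the 15 motifs that had one, among them ETS (1.52, against 1.63 as listed), CRE (1.28, against 1.19) and CTCF (1.69, against 0.952).

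Motifs typical of CpG-rich promoters were scarcer than in promoters. ETS matched in 1.59% of members and 8.86% of promoters, CRE in 0.249% and 1.79%, and NRF1 in 0.0311% and 0.971%. At least 1 of the motifs FOXA, HNF4A, C/EBP, STAT5 and ONECUT was found in 31.0% of members, and 3 or more in 0.249%. Over the 4 groups by level, from lowest to highest, the share with HNF4A was 0.653%, 1.06%, 1.15% and 2.15%.

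HNF4A and FOXA matches were denser at the members' centres than away from them, which was not so for every motif. HNF4A had 0.0474 matches per kb within 150 bases of the centre and 0.0124 beyond 1500 bases, and FOXA 0.223 and 0.155. ONECUT (0.137 and 0.146) and CTCF (0.0708 and 0.0845) were lower at the centre. For the reversed letters the values were 0.0144 and 0.00941 for HNF4A, and 0.228 and 0.238 for FOXA. The centre is the midpoint of the bases covered in all lists, and at the summit of the highest male B6 peak instead the window share was 0.661% for HNF4A and 4.94% for FOXA, and 12 of 16 motifs were above nearby introns.

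**Figure D4:**
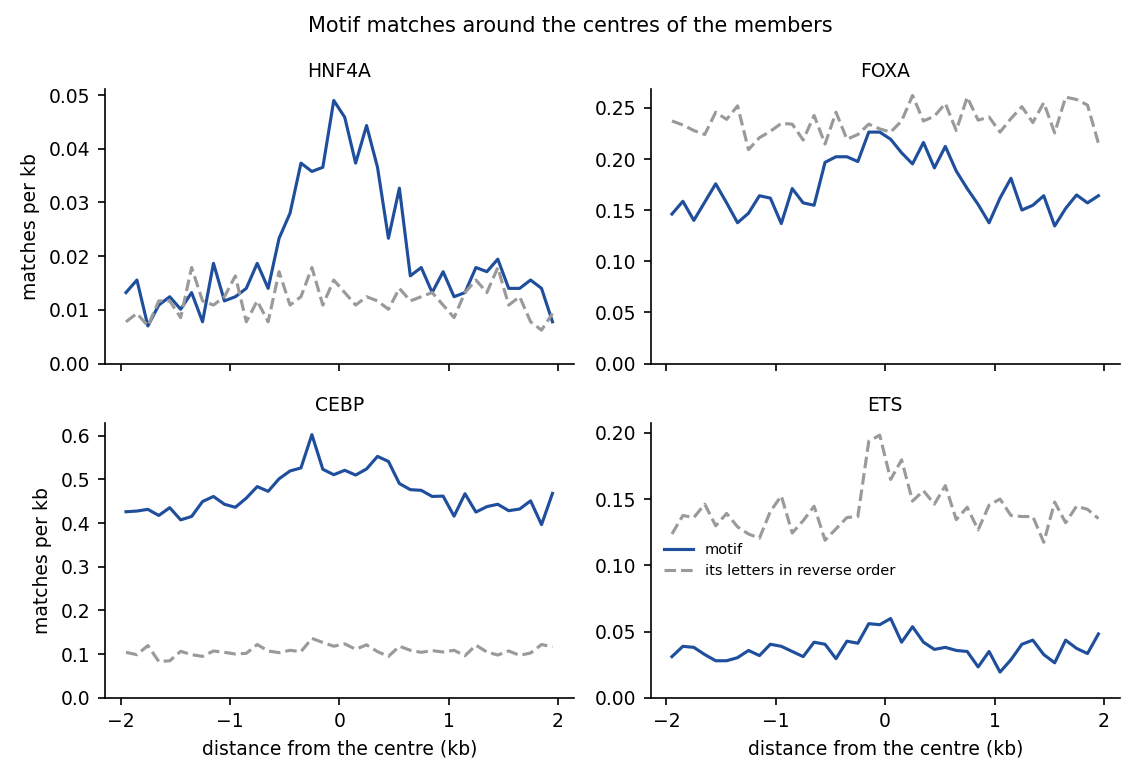
Matches per kb in bins of 100 bases around the centres of the 12859 members, for the motif as listed (solid) and its letters in reverse order (dashed); vertical axes differ between panels. The HNF4A curve rises to 0.049 at the centre while its reversed letters stay under 0.018, and both ETS curves rise at the centre.

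Male and female livers differed by 1.5-fold or more at few members. No replicates stand behind these ratios, and since every member was called in all lists, a member lost in 1 sex could not be among them. In B6, 78 members were higher in males (0.607%, background over all 47477 shared regions 0.71%) and 51 in females (0.397%, background 0.39%). In CAST, 168 were higher in males (1.31%, background 1.42%) and 35 in females (0.272%, background 0.236%). These shares lie near the background, and the log2 male over female ratio of all members had a median of -0.01 in B6 and 0.05 in CAST, with SDs over members of 0.21 and 0.22. With ratios centred on the median of all shared regions, the CAST counts became 85 and 81, and ratios of centred summit coverage gave 177 and 520. The male excess in CAST thus depends on the scaling and turns with summit coverage. In B6 summit coverage gave 306 and 237. No share over all shared regions is given for these alternative counts, so they are not set against a background. Intergenic distal regions were past 1.5-fold more often among those higher in males, at 1.20% (1.02 to 1.40) against 0.607% (0.486 to 0.756) in B6 and 2.02% (1.79 to 2.27) against 1.31% (1.12 to 1.52) in CAST. Among those higher in females the intervals overlapped, at 0.606% (0.486 to 0.754) against 0.397% (0.302 to 0.521) in B6 and 0.383% (0.291 to 0.505) against 0.272% (0.196 to 0.378) in CAST.

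The sexes' ratios in B6 and CAST share no sample. In both strains 13 members were higher in males (0.101%, background 0.0969%) and 1 in females (background 0.0169%). None was past 1.5-fold in opposite directions, which was rare among all 47477 shared regions too, at 4 of them. With centred summit coverage 104 members were past 1.5-fold in the same direction and 6 in opposite directions, again with no background share. Of the 78 members higher in B6 males, 60 (76.9%, 66.4 to 84.9) also had the higher value in CAST males, against 60.7% of all members. Of the 51 higher in B6 females, 26 (51.0%, 37.7 to 64.1) had the higher value in CAST females, against 39.3%. Taken from CAST, 106 of 168 male-higher members (63.1%, 55.6 to 70.0) had the higher value in B6 males, against 48.2%, and 18 of 35 female-higher members (51.4%, 35.6 to 67.0) in B6 females, against 51.8%. Across all members the Pearson correlation of the log2 ratios was 0.096. The 13 male-higher members lay in 13 different hosts.

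The male-higher members with the largest ratio in both strains lay in Ccdc11, Odz2, Myo18b, Atrnl1, Lrig3 and Tyw1. The Ccdc11 member, in intron 7 on chromosome 18, had fold enrichments of 4.75 in male B6, 2.13 in female B6, 4.63 in male CAST and 2.30 in female CAST. The Odz2 member, in the gene of a teneurin (chr11:36445225-36447215), had 4.02 and 1.88 in male and female B6 and 3.50 and 2.02 in CAST, and its peaks covered 1564, 249, 1741 and 275 bp. In Myo18b, an unconventional myosin gene (chr5:113277564-113278298), the values were 3.98 and 2.08, and 5.08 and 3.03. Both male lists were above both female lists at each of these members, which within a strain is fixed by their choice.

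Atrnl1, whose product resembles attractin, had 4.83 and 2.94 in male and female B6 and 5.30 and 2.67 in CAST (chr19:58165047-58166431, intron 28). Lrig3, a membrane protein gene, had 3.50 and 2.17, and 4.54 and 2.5 (chr10:125423298-125424613, intron 3). Tyw1, a tRNA-modifying enzyme gene, had 3.36 and 1.98, and 4.91 and 3.13 (chr5:130739754-130741391, intron 3). With the length-weighted mean of the peaks the log2 ratio of Lrig3 in B6 was 0.52, and with centred ratios that of Tyw1 in CAST was 0.57, both under 1.5-fold. The starts of Atrnl1, Lrig3 and Tyw1 had shared regions with log2 male over female ratios of -0.16, -0.21 and -0.12 in B6 and 0.02, 0.12 and 0.31 in CAST. None of those starts was past 1.5-fold.

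Greb1l, in intron 1 on chromosome 18, had 2.12 in male B6, 3.74 in female B6, 2.13 in male CAST and 3.37 in female CAST, and was the only female-higher member past 1.5-fold in both strains. The Mkl2 member, in the gene of a coactivator of SRF (chr16:13313794-13314202), had 2.25 and 3.37 in B6 and 2.44 and 3.73 in CAST. Myh14, a non-muscle myosin gene (chr7:51899703-51900672), had 3.03 and 4.40, and 2.45 and 3.73. Hpcal1, a calcium sensor gene (chr12:17769475-17772312), had 2.91 and 4.19, and 1.93 and 2.75, and the last intron of Rad51l1 (chr12:80899483-80900586) had 2.11 and 3.44, and 2.38 and 3.38. Each had both female values above the male value of the same strain, which the choice of these members fixes.

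In Lama3, a laminin chain gene on chromosome 18, the fold enrichment was 2.72 in male and 4.40 in female B6, and 3.12 and 4.67 in CAST, but the background was not even. Its implied background was 99.7 in male B6 against 34.5 in female B6, and 109 against 36.7 in CAST. The summit coverage worked out from the deposited values was thus higher in males, at 273 against 155 and 341 against 175, and after centring gave log2 male over female ratios of 0.79 in B6 and 0.69 in CAST.

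**Figure D5:**
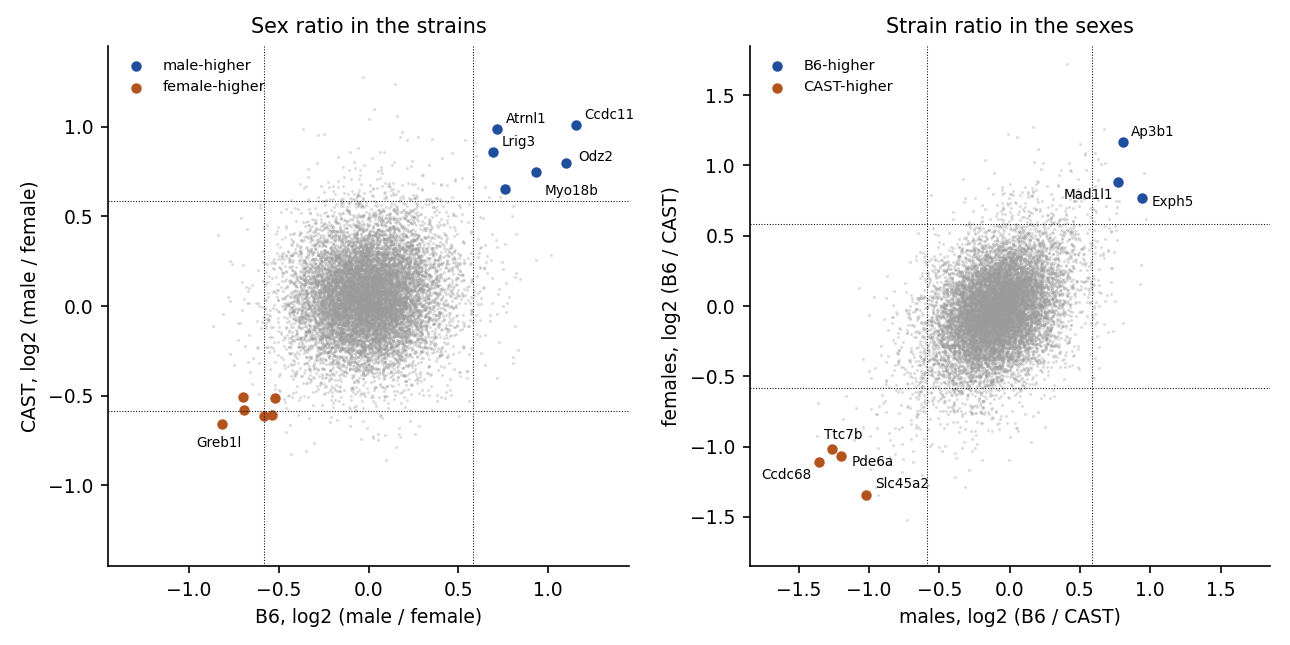
Log2 ratios of fold enrichment for the 12859 members, each grey point 1 member, with the named members in colour and dotted lines at 1.5-fold; left, male over female in B6 against CAST, right, B6 over CAST in males against females. Ccdc11 lies at 1.16 and 1.01 on the left, and Ccdc68 at -1.35 and -1.11 on the right.

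The strains differed at more members than the sexes did. CAST reads were aligned by the authors to a CAST genome and then placed on mm9, so alignment and strain cannot be told apart in these ratios. In males 82 members were higher in B6 (0.638%, background 0.55%) and 312 in CAST (2.43%, background 2.17%). In females 203 were higher in B6 (1.58%, background 1.9%) and 317 in CAST (2.47%, background 2.49%). Centring the ratios in males turned 82 and 312 into 163 and 147, and centred summit coverage gave 645 and 459, so the CAST excess in males depends on the scaling and turns with summit coverage. These alternative counts have no background share either.

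Strain ratios in males and females share no sample, and they went together more than the sex ratios. In both sexes 23 members were higher in B6 (0.179%, background 0.232%) and 88 in CAST (0.684%, background 0.621%). Of 312 members higher in CAST males, 265 (84.9%, 80.5 to 88.5) were higher in CAST females too, against 54.5% of all members. Of 82 higher in B6 males, 65 (79.3%, 69.3 to 86.6) were higher in B6 females, against 45.5%. The Pearson correlation of the ratios across members was 0.385, and over the 4 groups by level it was 0.236, 0.340, 0.438 and 0.467. The 88 members lay in 87 hosts, with 2 in Immp2l.

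The B6-higher members named were those of Ap3b1, Mad1l1 and Exph5. In Ap3b1, which encodes a subunit of the AP-3 adaptor (chr13:95151480-95153307), the fold enrichment was 4.58 in male B6, 4.77 in female B6, 2.62 in male CAST and 2.13 in female CAST, and in Mad1l1, a spindle checkpoint gene (chr5:140758043-140759614), 5.29, 5.07, 3.10 and 2.75. Exph5, the gene of a Rab effector (chr9:53115311-53116765), had 5.92, 4.11, 3.09 and 2.41. Both B6 lists were above both CAST lists at each, which within a sex is fixed by the choice of these members.

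The CAST-higher members named were those of Ccdc68, Pde6a, Slc45a2 and Ttc7b. Ccdc68 (intron 6) and Pde6a (intron 10), both on chromosome 18, had 2.0, 2.34, 5.01 and 5.05, and 2.27, 2.08, 5.22 and 4.36. Slc45a2, a transporter gene known from pigment cells (chr15:10940042-10941674), had 3.05, 2.41, 6.18 and 6.11. Its implied background was 45.5 and 43.8 in B6 against 27.5 and 28.8 in CAST, and its centred summit coverage gave log2 B6 over CAST ratios of -0.22 in males and -0.92 in females. Ttc7b, of a lipid kinase complex (chr12:101579892-101580562), had 2.23, 2.18, 5.37 and 4.42. Both CAST lists were above both B6 lists at each, which within a sex is again fixed by the choice.

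The starts of the called members' hosts were set beside all shared regions near starts. Of the 64 members higher in B6 males that had a region at the host start, 1 had a start past 1.5-fold in that direction, against 0.397% of all 17645 regions near starts. The number was 3 of 41 for B6 females (0.244% near starts), 1 of 146 for CAST males (1.05%) and 1 of 31 for CAST females (0.108%). For the strains it was 0 of 67 (0.323%) and 4 of 263 (1.24%) in males, B6-higher and CAST-higher, and 4 of 165 (1.57%) and 9 of 273 (1.34%) in females. The host start was the higher in females for 32 of the 41 members higher in B6 females, 78.0% (63.3 to 88.0), against 61.8% over all members. In the other 7 sets the share of starts that went the same way had an interval that held the share over all members, for instance 22.6% (11.4 to 39.8) against 21.3% for those higher in CAST females. In the hosts of the 13 members higher in males of both strains, 138 other members were present, and 30.4% of them had the higher value in males of both strains, against 30.0% of all members. In the hosts of the 88 CAST-higher members the value was 46.2% of 383 other members, against 41.3%, in those of the 23 B6-higher members 17.3% of 110, against 20.3%, and in that of the single female-higher member 0 of 4.

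Motif shares in the called sets were close to those of all members. Of 72 shares, 2 had an interval that left out the share over all members, for CTCF among those higher in CAST females than males and for STAT5 among those higher in B6 than CAST males, where it matched in 19.5% of windows against 9.67% overall.

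At the limits of the rule, the widest members were in Mtss1 (4840 bp) and Dusp10 (4662 bp), with fold enrichments of 1.82 to 2.0 and 2.28 to 2.73 over the lists. The members nearest a start lay 2501 bp away, in Commd1 and Slc2a5, with 2.53 to 3.99 and 3.19 to 4.04. Just outside the limit were regions in Zmynd8 (2499 bp from a start) with 1.64 to 1.86 and in Cab39l (2498 bp) with 1.65 to 2.05. No region was left out by the width limit alone.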

How the data were processed

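H3K27ac ChIP-seq of mouse liver was used as deposited, as 4 peak lists. The authors pooled the 5 livers of a group, aligned reads with Bowtie2 (CAST reads to a CAST genome, then placed on mm9) and called peaks with MACS2 against the group's input, the tools and build being those of the submitters' notes. For each peak the authors deposited a score (10 times the −log10 q, rounded down), a fold enrichment (a ratio of summit coverage to background), the −log10 p and a summit offset. Sequencing depth is not in the lists.

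From these, union regions, introns and hosts were computed with the GENCODE annotation of the NCBIM37 build (the assembly also named mm9), in Python 3.11.15 with pandas 2.3.3, numpy 2.4.6 and scipy 1.17.1. A region's value in a list was that of its peak with the highest fold enrichment, and its level was ranked by its score percentile. Ratios past 1.5-fold were counted without a test. Implied summit coverage and background were solved from fold enrichment and p. The steps were tested on simulated data. The members, gene lists and alternatives were chosen with earlier results of these data known.

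Named members were the 6 highest by lowest percentile, the 6 most male-higher and 6 most female-higher by the smaller ratio of both strains, the 4 most B6-higher (1 of which is not reported here) and 4 most CAST-higher by the smaller ratio of both sexes, the 4 with opposite sex ratios in the strains, the 8 hosts with most members, 3 hosts per gene list and the members and regions at the limits. For RefSeq promoters, 32841 of 32851 sequences were searched for motifs. Of the 9 functional gene lists with 407 entries, 402 matched a gene of the annotation.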

Additional observations from a re-analysis of the deposited data

Results flagged for a closer look

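On the X chromosome, which the comparisons above leave out, 130 regions met the same rule. They lay in 64 host genes, 9 of them in Bcor, and their median fold enrichment was 2.74 in male B6, 2.74 in female B6, 2.90 in male CAST and 2.75 in female CAST. The median log2 male over female ratio was 0.03 in B6 and 0.04 in CAST, and none was past 1.5-fold in the same direction in both strains.

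The 4 members with the most opposed sex ratios in the strains are given here, with 1 pooled list per group and the difference not tested. Over all members 30.0% had the higher value in males of both strains and 21% in females of both, so opposite signs as such were common. In Unc80, a subunit gene of a sodium leak channel, the log2 male over female ratio was 0.56 in B6 and -0.53 in CAST. In Dnajc3, an endoplasmic reticulum chaperone gene, it was 0.50 and -0.61. In Ror2, a receptor for Wnt ligands, it was -0.60 and 0.56, and in Galntl6, which resembles the GalNAc transferases, it was -0.60 and 0.55. Fold enrichments in male B6, female B6, male CAST and female CAST were 3.67, 2.49, 2.45 and 3.53 in Unc80 and 3.31, 5.02, 3.19 and 2.19 in Galntl6. These were the most opposed of 12859 members, and none was past 1.5-fold in both strains.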

How the results depend on the processing

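No paired analysis was possible because each list pools the 5 livers of a group, and no replicate could be left out for the same reason. Of 109 values of 16 results under alternatives, 75 stayed within 1.5 times, for counts, or within the counting interval, for shares and ratios, and 34 did not. Members numbered 9636 to 13380, hosts 3545 to 4223, and the first to later intron ratio was 1.81 to 1.88. The share in first introns was 36.9% with a 5000 bp start distance. In the order B6 males, B6 females, CAST males and CAST females, counts between the sexes at 2-fold were 4, 0, 6 and 0, and with only peaks of −log10 q of 5 or more 28, 20, 100 and 19. In both strains the counts were then 1 and 4. Strain counts, as B6-higher and CAST-higher, were 0 and 16 in males and 18 and 32 in females at 2-fold, with 5 in both sexes, and 44 and 178, 112 and 161, and 48 with those peaks. Centring on the median gave 85 and 81 in CAST between the sexes and 163 and 147 between male strains. Ratios of centred summit coverage, an alternative chosen after seeing the data like those on RefSeq starts and summit centres, gave 306 male-higher and 237 female-higher members in B6, 177 and 520 in CAST, 104 in both strains and 6 in opposite directions. Between the strains it gave 645 B6-higher and 459 CAST-higher in males, 754 and 1156 in females and 609 in both sexes. It reversed the log2 sex ratio of Lama3, to 0.79 in B6 and 0.69 in CAST. Of 16 motifs, 16 were more frequent in members than nearby in 500-base windows, 16 about union midpoints, 13 against windows 5000 bp away and 12 about summits. The median over shared regions was 0.28 for that log2 sex ratio in CAST and 0.16 for the strain ratio in females, against 0.08 and -0.01 for fold enrichment. The cause of these shifts was not tested, and no share over all shared regions is given for the counts under alternatives.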
